A study of Mus musculus with 5 samples.

Results

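The genes of the fibrillar collagens and of the interstitial matrix were followed in dorsal pancreatic buds that lack Ptf1a and in buds that keep 1 working copy of it. The list held 45 genes: fibrillar collagens, the collagens that sit on or between fibrils, elastic fibre and microfibril proteins, matrix glycoproteins, proteoglycans, enzymes and inhibitors of matrix crosslinking and turnover, and 5 genes that mark mesenchymal cells. Each gene was represented by 1 probe set, a group of oligonucleotides on the array that reads 1 transcript. Of the probe sets annotated to that gene alone, the one with the highest mean log2 signal over the 5 arrays was used. Such a probe set was found for 43 of the 45 genes, out of 18193 genes on the array. Every probe set naming Loxl2 carried another symbol as well, and Fbn1 was not analysed here.

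The arrays were Affymetrix Mouse Genome 430 2.0 arrays of RNA from C57BL/6J embryos at E10.5. Adults heterozygous for a Ptf1a mutation were mated, and buds were sorted by genotype into Ptf1a null (n = 3 arrays) and Ptf1a heterozygote (n = 2 arrays). The heterozygotes served as the reference group, so the mutation was present in both groups, and no array of wild-type buds entered the comparison. In both groups the mesenchyme had been stripped from the bud by hand, 3 buds were combined per array, and RNA was amplified in 2 rounds from an oligo(dT) primer. Neither the deleted part of Ptf1a nor the litter behind each pool is stated, so p-values measure only the spread between these pools.

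Fibrillar collagens are long triple-helical proteins that assemble outside the cell into the fibrils of connective tissue. Other collagens, glycoproteins and small proteoglycans coat these fibrils and link them to cells, lysyl oxidases crosslink them, and metalloproteinases held in check by TIMP inhibitors take them apart. In the early pancreas most of this matrix is made by the mesenchyme around the epithelial bud, which also sends the signals that keep pancreatic progenitors growing.

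Signal was read as log2 values after quantile normalisation, and a background level between 3.03 and 3.29 was taken on each array from control probe sets for bacterial genes. Between 60.9% and 65.2% of probe sets lay above that level. Ptf1a, a transcription factor required to form the pancreas, had log2 signals of 7.10 and 7.33 on the heterozygote arrays and 5.21, 6.07 and 5.00 on the null arrays (log2 difference -1.79, limma adjusted p = 0.651). Whether that probe set reads the deleted part is not stated. Of 11 pancreatic epithelium markers, 10 were above background on all 5 arrays. Of 17 transcription factors of mesenchyme, 7 were above background on all 5 arrays, and Twist1 was below it on all 5. In pooled buds, more cells of a type and more RNA per cell cannot be told apart, and this applies to every difference below.

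None of the 43 matrix genes passed the test between null and heterozygote buds. The limma fit with a constant prior variance, called the untrended fit here, called 0 of the 43 at an adjusted p under 0.05, against 0 of 45037 probe sets in all (0%). The fit whose prior variance follows signal level, called the trended fit, also called 0 of the 43, against 8 of 45037 probe sets (0.0178%). The untrended fit gave an unadjusted p under 0.05 to 3 matrix genes (Timp1, Thbs2 and Acta2) and the trended fit to 3 (Fn1, Postn and Acta2), where 4.47% of all genes had one in either fit. The lowest limma adjusted p among the 43 was 0.847 for Acta2, untrended, and 0.811 for Fn1, trended.

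The mean was higher in nulls for 25 matrix genes and lower for 18, so 58.1% were higher, against 49.1% of all genes. Their median log2 difference, null minus heterozygote, was 0.13, with all genes at -0.012. It was 0.022 with median centring and -0.023 without normalisation, where 22 and 21 of the 43 were higher and the median of all genes stood at -0.095 and -0.14. In 8 matrix genes every null array lay above both heterozygote arrays: Col1a1, Col5a2, Fn1, Postn, Sparc, Timp1, Pdgfra and Acta2. That is 18.6% of the 43, where 9.82% of all genes did so. In 3 matrix genes, Eln, Thbs2 and Tagln, all nulls lay under both heterozygotes, which is 6.98% of the 43 where 10.1% of all genes did so. With 3 arrays against 2, an exact permutation test of a gene cannot give a p below 0.1, so none was run per gene.

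**Figure D1:**
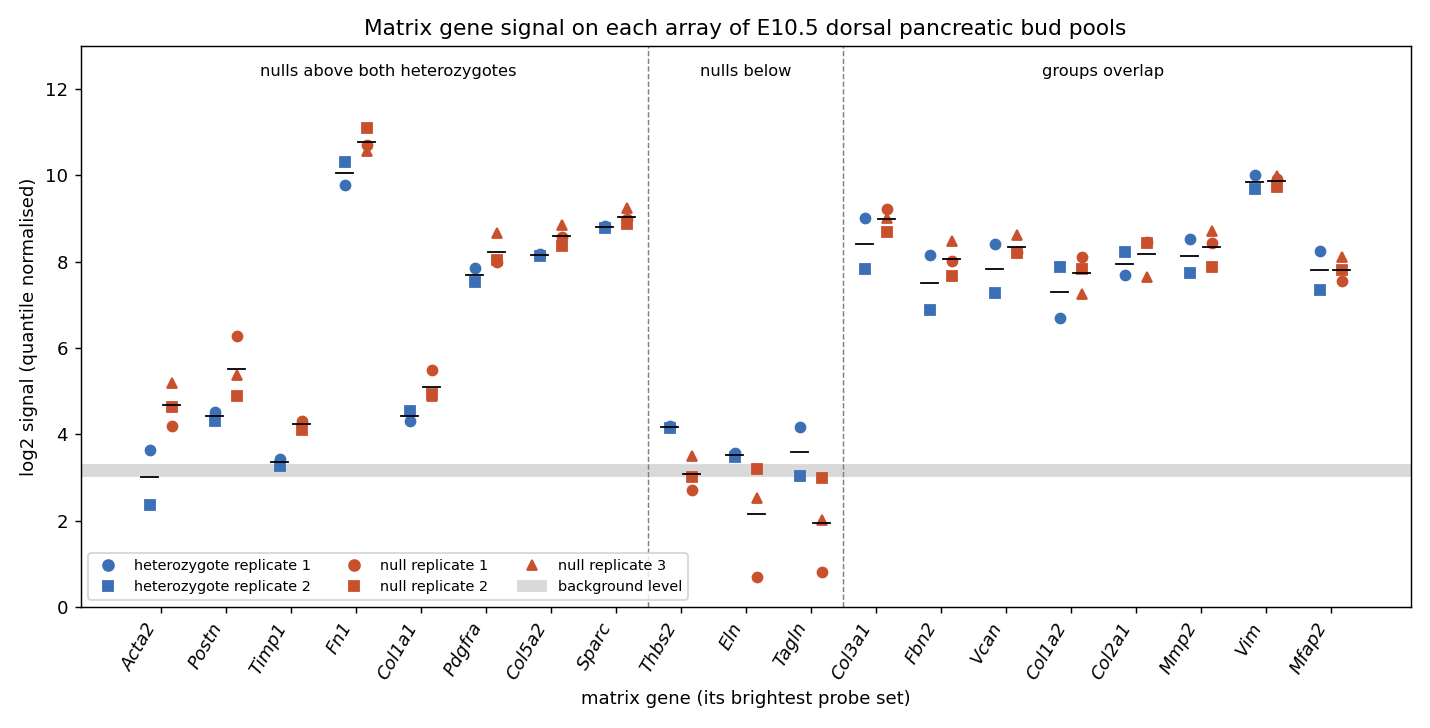
Log2 signal (vertical axis, quantile normalised) of 19 matrix genes (horizontal axis), with 1 point per array, heterozygotes in blue, nulls in red and the group mean as a short black line. The grey band is the background level, from 3.03 to 3.29. The 8 genes on the left have every null above both heterozygotes, the 3 in the middle have every null below, and the 8 on the right overlap.

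The 2 largest differences among the 8 genes with nulls above both heterozygotes were those of Acta2 (1.67) and Postn (1.10), and the sequence just before their transcription starts is shown for that reason, chosen after the values were seen. RefSeq promoter sequence (GRCm38.p6) was given for 5 of the 8 genes. The 150 bases before the start were searched on both strands for the TATA box core TATAA, for CCAAT, and for the CArG box, the site of serum response factor, with at most 1 departure from A or T in its middle. Matches are in capitals.
Acta2, chr19:34255374-34255523, minus strand: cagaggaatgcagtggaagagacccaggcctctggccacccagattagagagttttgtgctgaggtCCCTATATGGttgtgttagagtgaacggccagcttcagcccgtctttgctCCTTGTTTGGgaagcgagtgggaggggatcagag
Postn, chr3:54360957-54361106, plus strand: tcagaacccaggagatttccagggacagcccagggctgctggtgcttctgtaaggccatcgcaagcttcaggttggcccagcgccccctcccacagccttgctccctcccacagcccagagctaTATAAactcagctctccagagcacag
The Acta2 stretch held 2 CArG boxes, at 84 to 75 and at 34 to 25 bases before the start, which do not overlap. The Postn stretch, which belongs to the downstream of its RefSeq starts, held a TATA box core at 26 to 22 bases before the start. The stretch before its other RefSeq start and that before the start of Timp1, not printed here, held no match. Among all 32851 promoters searched in the same way, 14.2% held TATAA, 24.5% held CCAAT and 5.1% held a CArG box. The 31 promoters of the 25 matrix genes that have one held them in 7, 10 and 3 cases. These are matches of letters and show no binding.

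Of the 8 fibrillar collagen genes, 6 had a higher mean in nulls and 2 a lower one, with a median log2 difference of 0.32 (5 higher, with a median of 0.19, after median centring). Col1a1 encodes the main chain of type I collagen, the collagen of bone, skin and tendon. It read 4.30 and 4.55 on the heterozygote arrays and 5.49, 4.92 and 4.89 on the null arrays. Every null was above both heterozygotes. The heterozygote mean was 4.42 ± 0.18 (SD, n = 2) and the null mean 5.10 ± 0.33 (SD, n = 3), a log2 difference of 0.68 (SE 0.39, limma adjusted p = 0.986). The other Col1a1 probe set, 1423669_at, above background on only 1 array, differed by 0.18 with overlap. Its partner chain Col1a2 read 6.70 and 7.87 on the heterozygotes and 8.11, 7.83 and 7.25 on the nulls. The groups overlapped, since heterozygote replicate 2 lay above nulls 2 and 3, and the difference of 0.45 was smaller than the gap of 1.17 between the heterozygotes.

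Col3a1, the chain of type III collagen found in soft and growing tissues, read 9.02 and 7.82 on the heterozygotes and 9.23, 8.70 and 9.02 on the nulls. Heterozygote replicate 1 stood among the nulls and heterozygote replicate 2 alone was low. The difference was 0.56 (SE 0.50, limma adjusted p = 0.992), and -0.038 without heterozygote replicate 2. Col5a2, a chain of the type V collagen that helps start fibrils, read 8.19 and 8.14 on the heterozygotes and 8.57, 8.37 and 8.85 on the nulls. Its heterozygotes lay 0.048 apart, every null was above them, and the difference was 0.43 (SE 0.36, limma adjusted p = 0.991). Of the other type V chains, Col5a1 differed by 0.006 and Col5a3 by -0.81, the latter with null replicate 2 alone below background, at -0.083. A further Col5a1 probe set, 1416740_at, above background on all 5 arrays, differed by 0.31 with every null above both heterozygotes. Col2a1, the collagen of cartilage and notochord, read 7.69 and 8.22 on the heterozygotes and 8.44, 8.44 and 7.63 on the nulls. The lowest and the highest of the 5 were both nulls. Col11a1, a minor chain of cartilage fibrils, differed by -0.008. Its other probe set, 1449154_at, above background on all 5 arrays, differed by -0.42 with every null below both heterozygotes.

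Of the 6 collagens that decorate fibrils or form beaded filaments, 2 were higher in nulls and 4 lower, with a median log2 difference of -0.27. None of the 6 separated the groups at its chosen probe set. Col12a1 and Col14a1, which lie on the surface of fibrils, differed by -1.53 and -0.31. The Col12a1 signal was above background on both heterozygotes, at 3.24 and 3.87, and on 1 null, with nulls at 2.08, 3.39 and 0.61. The 3 chains of type VI collagen, which form beaded filaments around cells, differed by 0.25 (Col6a1), 0.23 (Col6a2) and -0.33 (Col6a3), all with overlap. At the other Col6a2 probe set, 1452250_a_at, every null was above both heterozygotes. It was above background on only 2 arrays, neither of them a heterozygote, so no size is given. Col9a1, which coats cartilage fibrils, differed by -0.23.

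**Figure D2:**
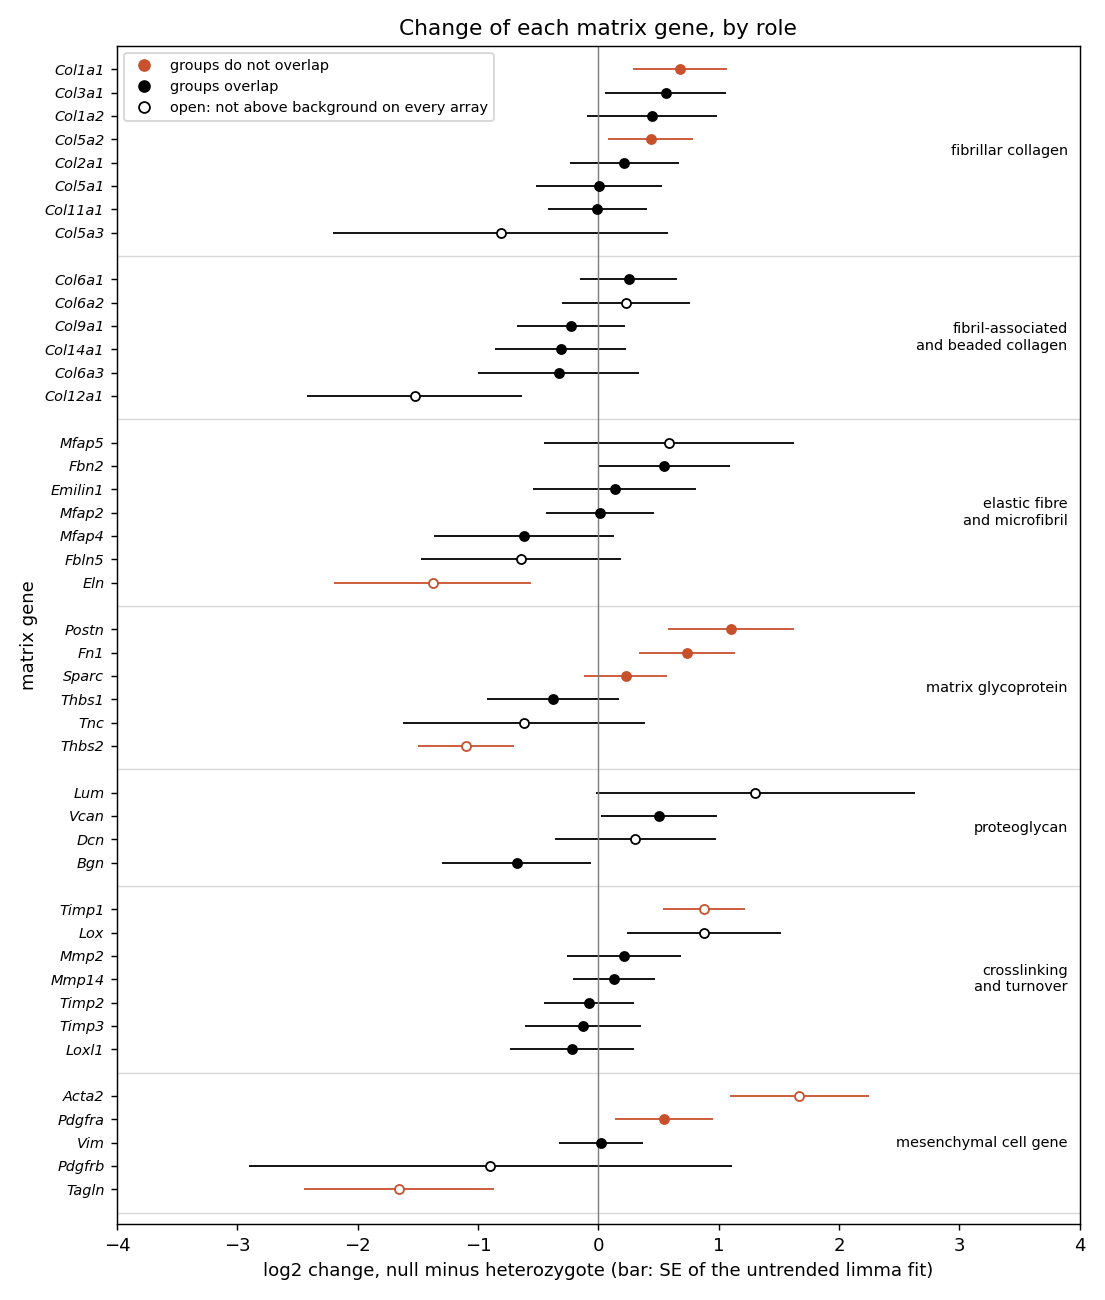
Log2 difference, null minus heterozygote (horizontal axis), of each of the 43 matrix genes (vertical axis), grouped by role, with the standard error of the untrended limma fit as a bar. Red points mark genes whose groups do not overlap and open points mark genes not above background on every array. The widest bars belong to Pdgfrb, Col5a3 and Lum, which all have open points.

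Of the 7 elastic fibre and microfibril genes measured, 4 were higher in nulls and 3 lower, with a median log2 difference of 0.013, which was -0.11 with median centring and -0.16 without normalisation. Fbn2, the fibrillin of embryonic microfibrils, read 8.14 and 6.87 on the heterozygotes and 8.02, 7.67 and 8.47 on the nulls. Only heterozygote replicate 2 was outside the range of the nulls, and the difference of 0.55 (SE 0.55) became -0.090 without that array. Mfap2, a glycoprotein that binds microfibrils, read 8.26 and 7.35 on the heterozygotes and 7.55, 7.80 and 8.11 on the nulls. All 3 nulls lay between the heterozygotes. Its difference of 0.013 is the median of the group and turned negative in the same way under those scalings. Eln, the elastin gene, read 3.56 and 3.48 on the heterozygotes and 0.70, 3.20 and 2.53 on the nulls. Every null was below both heterozygotes, and only null replicate 2 was above background. The log2 difference was -1.38 (SE 0.82, limma adjusted p = 0.991), -0.66 without null replicate 1, and -0.40 when values under the background level were raised to it.

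The rest of this group overlapped. Emilin1, an elastic fibre glycoprotein, differed by 0.13, and Mfap4, another microfibril-associated protein, by -0.62. For Mfap4 the heterozygotes lay 2.09 apart, at 5.82 and 3.73, and nulls lay between them. Fbln5, a fibulin that helps assemble elastic fibres, differed by -0.64 and Mfap5 by 0.59, and both were above background on only 2 arrays.

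Of the 6 matrix glycoproteins, 4 did not overlap between the groups, 3 with nulls above and 1 with nulls below, where 9.82% and 10.1% of all genes did so. Their median log2 difference was -0.075, and 0.024 with an offset of 16 added before the log. Fn1 encodes fibronectin, the adhesive protein on which collagen fibrils are first laid down. It read 9.78 and 10.32 on the heterozygotes and 10.70, 11.09 and 10.56 on the nulls. Every null was above both heterozygotes, with means of 10.05 ± 0.38 (SD, n = 2) and 10.78 ± 0.27 (SD, n = 3). The log2 difference was 0.74 (SE 0.40, 1.67-fold, limma adjusted p = 0.98 untrended and 0.811 trended), and it ranged from 0.47 to 1.01 with an array left out. Its other probe set, 1437218_at, differed by 0.53 with overlap.

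Postn, or periostin, is a secreted protein of remodelling connective tissue that binds collagen and fibronectin. It read 4.51 and 4.32 on the heterozygotes and 6.27, 4.90 and 5.38 on the nulls. The heterozygotes lay 0.19 apart while the nulls spanned 1.37, with null replicate 1 the highest. The log2 difference was 1.10 (SE 0.52, limma adjusted p = 0.958 untrended and 0.976 trended), and 0.73 without null replicate 1.

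Sparc, a collagen-binding protein involved in fibril assembly, read 8.82 and 8.79 on the heterozygotes and 8.98, 8.88 and 9.24 on the nulls. All nulls were above, by a difference of 0.23 (SE 0.35) that was 0.034 without normalisation and 0.12 without null replicate 3, and its other probe set 1416589_at, also above background on every array, differed by -0.05. Thbs2, a thrombospondin that affects fibril shape and vessel growth, read 4.20 and 4.15 on the heterozygotes and 2.71, 3.01 and 3.49 on the nulls. Every null was lower and only null replicate 3 stayed above background. The log2 difference was -1.10 (SE 0.40, limma adjusted p = 0.872), whereas its other probe sets, 1447862_x_at and 1450663_at, differed by 0.12 and 0.94. Thbs1 differed by -0.38 and Tnc, the gene of tenascin C, by -0.62, both with overlap. The Tnc difference came with null replicate 2 at 1.64, the 1 array below background.

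Of the 4 proteoglycans, 3 were higher in nulls and 1 was lower, and none separated the groups. Vcan encodes versican, a large hyaluronan-binding proteoglycan of embryonic mesenchyme. It read 8.41 and 7.28 on the heterozygotes and 8.22, 8.20 and 8.61 on the nulls. Again heterozygote replicate 2 alone was low, and the difference of 0.50 (SE 0.48) became -0.061 without it. Of the small collagen-binding proteoglycans, Dcn (decorin) differed by 0.31, Bgn (biglycan) by -0.68 and Lum (lumican) by 1.30, for which no fold is given because both heterozygotes and 2 of the nulls were below background.

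Among the 7 measured genes of crosslinking and turnover, 4 were higher in nulls and 3 lower, with a median log2 difference of 0.13 that was -0.023 without normalisation. Timp1, an inhibitor of metalloproteinases, read 3.43 and 3.28 on the heterozygotes and 4.31, 4.10 and 4.29 on the nulls. Every null was above both heterozygotes and the spread within each group was small, at 3.35 ± 0.11 (SD, n = 2) and 4.23 ± 0.12 (SD, n = 3). The heterozygote signal was dim, with replicate 2 below the background level of its array, 3.29. The log2 difference was 0.88 (SE 0.34, limma adjusted p = 0.904), and 0.41 with an offset of 16 added before the log. The other inhibitors, Timp2 and Timp3, differed by -0.076 and -0.13 at their chosen probe sets. Timp3 differed by 0.93 at 1419088_at, above background on every array, with every null above both heterozygotes. Its remaining probe sets, 1419089_at and 1449334_at, differed by -0.66 and 2.09. For Timp2, the other probe sets above background on every array, 1433662_s_at, 1454677_at and 1460287_at, differed by 0.069, 0.77 and 0.17.

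Mmp2, the gelatinase that degrades denatured collagen, read 8.54 and 7.74 on the heterozygotes and 8.44, 7.88 and 8.72 on the nulls. The groups overlapped and the difference was 0.21. Mmp14, the membrane protease that activates Mmp2, differed by 0.13, and a further probe set of it, 1416572_at, differed by -0.52 with every null below both heterozygotes. The crosslinking enzymes Lox and Loxl1 differed by 0.88 and -0.22. For Lox both heterozygotes were below background and 1 null was above it, so no fold is given.

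The 5 mesenchymal cell genes had a median log2 difference of 0.025, which was -0.18 with median centring and -0.22 without normalisation. Acta2, the smooth muscle actin also made by activated fibroblasts, read 3.64 and 2.36 on the heterozygotes and 4.19, 4.62 and 5.19 on the nulls. Every null was above both heterozygotes, of which replicate 2 was below background. The log2 difference was 1.67 (SE 0.58, limma adjusted p = 0.847 untrended and 0.976 trended), 1.20 with dim values raised to the background level and 0.77 with the offset of 16. The probe set carries the suffix _s_at, which marks probes shared by more than 1 transcript. The other Acta2 probe sets were above background on 2 arrays and on none and differed by 0.44 and 0.18. Without heterozygote replicate 2 the Acta2 difference was 1.03, and without heterozygote replicate 1 it was 2.31.

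Tagln, which encodes the actin-binding protein transgelin of smooth muscle, had the opposite order. It read 4.17 and 3.02 on the heterozygotes and 0.82, 2.99 and 2.01 on the nulls. Every null was below both heterozygotes, and only heterozygote replicate 1 was above background (limma adjusted p = 0.958). The measured heterozygote mean lay 1.41-fold above the mean background level of the null arrays. That mean includes heterozygote replicate 2 as measured, itself below background, so 1.41 is not a lower bound and no fold is given. The value rests on heterozygote replicate 1, without which no group is above background.

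Pdgfra, a receptor for platelet-derived growth factor on mesenchymal cells, read 7.85 and 7.52 on the heterozygotes and 7.99, 8.04 and 8.67 on the nulls. All nulls were above, with a difference of 0.55 (SE 0.41, limma adjusted p = 0.991) that was 0.33 without null replicate 3, while its other probe sets 1421916_at and 1438946_at differed by 0.12 and -0.067 with overlap. Pdgfrb, the receptor of pericytes, scattered from -2.05 to 4.17 among the nulls alone. Vim, the intermediate filament of mesenchymal cells, read 10.02 and 9.69 on the heterozygotes and 9.92, 9.74 and 9.98 on the nulls. All nulls lay between the heterozygotes, at a difference of 0.025 (SE 0.35), which was negative under both other scalings.

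Each null array was then set against each heterozygote array. Against heterozygote replicate 1, the median log2 difference of the 43 genes was -0.095, -0.053 and 0.20 for null replicates 1, 2 and 3, and 21, 21 and 29 of the 43 were higher in the null. Against heterozygote replicate 2 it was 0.22, 0.090 and 0.45, with 28, 25 and 30 higher, and the lowest of these 3 medians was -0.15 with median centring and -0.22 without normalisation. Without probe sets ending in _s_at or _x_at, the lowest median against heterozygote replicate 1 was 0.036. The 6 pairs share arrays and are not independent. The median of all genes lay between -0.018 and 0.015 in every pair. Within a genotype, the median of the 43 genes was 0.15 for heterozygote replicate 1 minus 2, 0.19 for null replicate 1 minus 2, -0.26 for null 1 minus 3 and -0.31 for null 2 minus 3. For 25 of the 43 genes (58.1%) the heterozygotes lay farther apart than the group means did, as for 64.6% of all genes.

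**Figure D3:**
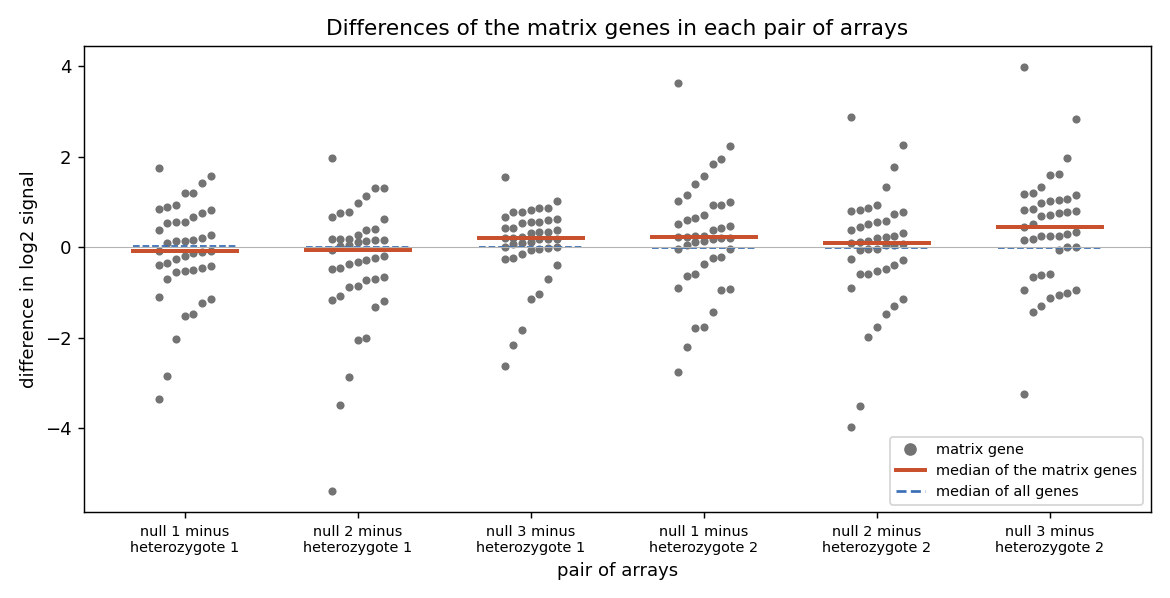
Difference in log2 signal (vertical axis) of each of the 43 matrix genes, as grey points, in the 6 pairs of a null and a heterozygote array (horizontal axis), with the median of the matrix genes in red and that of all genes dashed in blue. The red line is below 0 in 2 of the 3 pairs with heterozygote replicate 1 and above 0 in all 3 pairs with heterozygote replicate 2. The lowest of the latter was below 0 with median centring or no normalisation, and all 6 were above 0 without probe sets ending in _s_at or _x_at.

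Single arrays stood at the ends of many of these genes. Heterozygote replicate 2 was the lowest of the 5 arrays for 18 of the 43 matrix genes and for 21.3% of all genes. Null replicate 3 was the highest for 18 of the 43 and for 19.1% of all genes. Of the 28 matrix genes above background on every array, heterozygote replicate 2 was the lowest for 14 and null replicate 3 the highest for 13. Leaving out heterozygote replicate 2 turned the median log2 difference of the 43 genes from 0.13 to -0.061, and leaving out null replicate 3 turned it to -0.027.

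Markers of mesenchyme were read on the same arrays. For the 17 mesenchyme transcription factors, the median of log2 signal relative to each gene's mean was 0.15 on heterozygote replicate 1, -0.41 on heterozygote replicate 2, and 0.35, 0.13 and 0.37 on the nulls in order of replicate number. On that measure the matrix genes stood at 0.088, -0.15, 0.074, -0.038 and 0.29 in the same order of arrays. In both lists heterozygote replicate 2 was the lowest array and null replicate 3 the highest. The summed signal of the mesenchyme factors was 917 and 583 in heterozygotes and 877, 917 and 1126 in nulls. Of the 17, 12 had a higher mean in nulls, against 49.1% of all genes, with a median log2 difference of 0.35 (0.061 with the offset of 16). In 3 of the 17, Foxf1, Osr1 and Nkx3-2, every null lay above both heterozygotes, where 9.82% of all genes did so. For Osr1 and Nkx3-2 both heterozygotes were below background. The part of mesenchymal cells in the matrix gene differences was not tested.

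Smooth muscle markers had relative medians of 0.55 and -0.26 in heterozygotes and -0.045, -0.095 and 0.47 in nulls, with 5 of 9 higher in nulls and 2 of 9 above background on every array. Their summed signal was 223 and 133 in heterozygotes and 145 to 195 in nulls. Cnn1 and Lmod1 were below background on all 5 arrays, the only 2 of the 9 markers above it on no array. The summed signal of 6 mesothelium markers, the outer lining of the organs, was 74.8 and 16.9 in heterozygotes and 75.8 to 82.5 in nulls, lowest on heterozygote replicate 2. Of these 6, 0 were above background on every array and 1 was above it on none, so dim signal limits these sums. Endothelium markers stood at 0.53 and -0.20 in heterozygotes and -0.33, -0.18 and 0.65 in nulls. Pancreatic epithelium markers stood at -0.21 and 0.27 in heterozygotes and 0.10, 0.048 and -0.21 in nulls, so heterozygote replicate 2 was their highest array on that measure. Their summed signal was 4206 and 5044 in heterozygotes and 6036, 6279 and 4902 in nulls, so by sum null replicate 2 was the highest array. Erythroid markers were lower in nulls in 7 of 7 cases, with relative medians of 0.24 and 0.99 in heterozygotes and -0.059, -0.78 and -0.39 in nulls. Neural crest and glia markers were higher in nulls in 3 of 5 cases, notochord and cartilage markers in 3 of 6 and leukocyte markers in 2 of 6. Whether these cell types bear on the matrix genes was not tested either.

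**Figure D4:**
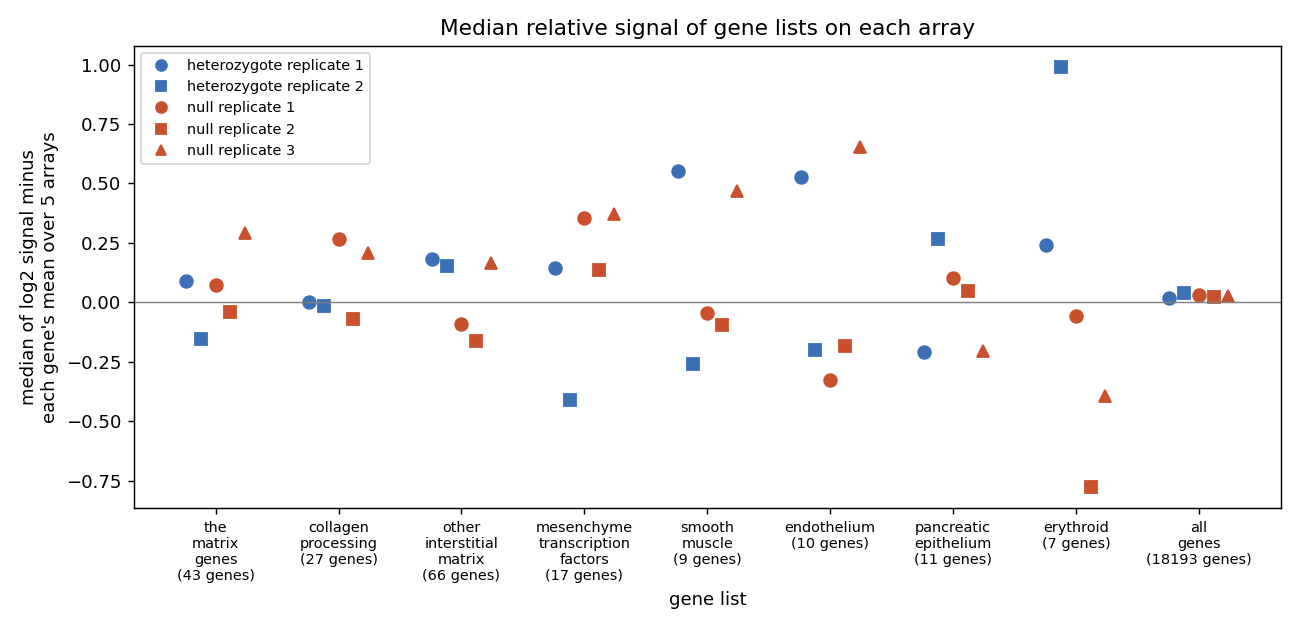
Median over each gene list (horizontal axis) of log2 signal minus the gene's mean over the 5 arrays (vertical axis), with 1 point per array, heterozygotes in blue and nulls in red. The matrix genes and the mesenchyme transcription factors are both lowest on heterozygote replicate 2, at -0.15 and -0.41, and highest on null replicate 3, at 0.29 and 0.37.

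Genes that process collagen inside and outside the cell were read beside the matrix genes. Of 27 measured, 0 passed in either limma fit, 16 had a higher mean in nulls, 4 lay above and 1 below without overlap (9.82% and 10.1% of all genes did so), and the median log2 difference was 0.098 (0.0017 without normalisation). An unadjusted p under 0.05 was reached by 2 of them untrended and 4 trended, where 4.47% of all genes had one in either fit. The 2 untrended ones were Tll1, below background on all 5 arrays, and Colgalt2, below background on both heterozygotes. P4ha1, a subunit of the prolyl hydroxylase that stabilises the collagen helix, read 6.17 and 4.88 on the heterozygotes and 6.80, 6.68 and 6.88 on the nulls. Every null was higher, by a difference of 1.26 (limma adjusted p = 0.915). P4ha2, an alternative subunit of the same enzyme, differed by 0.70 with overlap. Bmp1, the protease that trims procollagen so that fibrils can form, read 7.84 and 7.38 on the heterozygotes and 8.34, 8.25 and 8.22 on the nulls, a difference of 0.66 (limma adjusted p = 0.98). In the other direction P3h1, a prolyl 3-hydroxylase, differed by -0.29, the procollagen protease enhancer Pcolce by -0.26 and the lysyl hydroxylase Plod1 by -0.081, all with overlap.

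A wider list covered other interstitial matrix genes. Of 66 measured, 0 passed in either limma fit. An unadjusted p under 0.05 went to 4 untrended and 6 trended, where 4.47% of all genes had one in either fit. The mean was higher in nulls for 28, and the median log2 difference was -0.10. Without overlap, 5 lay above and 11 below, where 9.82% and 10.1% of all genes did so. With the offset of 16 that median was -0.021. Among genes above background on all 5 arrays, the 3 largest rises were those of Col16a1 (0.84), Ltbp1 (0.80) and Mmp11 (0.53), all without overlap. Col16a1 encodes a fibril-associated collagen, Ltbp1 a protein that tethers latent TGF-beta to the matrix, and Mmp11 a protease. Spon1, which encodes the secreted adhesion protein F-spondin, read 7.92 and 8.87 on the heterozygotes and 7.07, 6.90 and 6.47 on the nulls. Every null was below both heterozygotes, at a difference of -1.58 (limma adjusted p = 0.761 untrended and 0.321 trended). Emilin2 and Ecm1 differed by -0.98 and -0.71 with overlap.

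The probe set chosen for a gene often had company. Of the 43 genes, 35 had more than 1 probe set, and of the 60 others 38 had the same sign as the chosen one. Among the 23 others that were above background on all 5 arrays, 14 had the same sign. Col5a2 kept its order at its other probe set, 1450625_at, which differed by 0.67 with every null above both heterozygotes. Col3a1 had every null above both heterozygotes at 1427884_at, by 1.27, although the groups overlap at its chosen probe set. At 1427884_at heterozygote replicate 2 was below background. For Sparc, Pdgfra, Thbs2, Timp2 and Timp3, among others, at least 1 other probe set had the opposite sign. When the mean over a gene's probe sets was used, 4 genes in place of 8 had every null above both heterozygotes, where 9.98% of all genes did so.

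**Figure D5:**
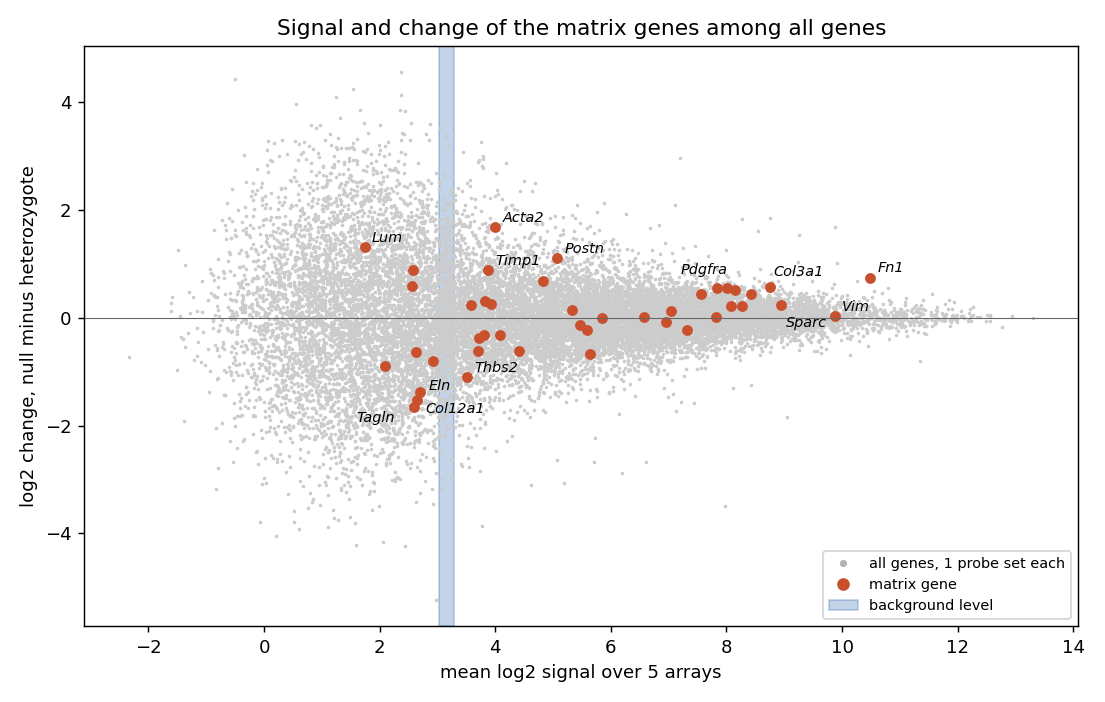
Log2 difference, null minus heterozygote (vertical axis), against mean log2 signal over the 5 arrays (horizontal axis), with the 43 matrix genes in red over all 18193 genes in grey and the background level as a blue band. The matrix genes with measured differences past 1 in size, such as Acta2 at 1.67, lie in the left part of the plot, where all genes scatter widely. Points of genes with a whole group below background, Tagln, Lum and Lox, are plotted as measured and give no size.

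Dim signal limits these values. Of the 43 genes, 28 were above background on all 5 arrays and 15 on 1 to 4 of them. The measured log2 difference was past 1 in size for 7 genes: Acta2, Postn, Lum, Eln, Thbs2, Col12a1 and Tagln. Of these, Postn alone was above background on every array, and for Lum and Tagln, with a whole group below background, the measured value is not a size.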

How the data were processed

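RNA of Ptf1a null (n = 3) and heterozygote (n = 2) bud pools was measured on 5 arrays. The authors' deposited values are signal intensities on a linear scale, 1 per probe set. Per the submitters' processing notes GCOS and RMA were used. Their versions, their roles and the handling of background are not given in the sources used here. The plan allowed for linear or log2 values, and the deposited intensities were linear. They were put on a log2 scale with no offset and quantile normalised over the 5 arrays. With 64 control probe sets set aside, 45037 entered the test, of which 34945 had 1 gene symbol, 932 several and 9160 none in the platform annotation. The background level was the 95th percentile of 27 Bacillus subtilis control probe sets on each array. Where a group is at or below it on all its arrays, the measured difference is not a size. Groups were compared with limma 3.58.1 in R 4.3.3 (lmFit and eBayes, two-sided, Benjamini-Hochberg over all tested probe sets, threshold 0.05). The trended fit sets trend and robust estimation in eBayes. Both were tested on simulated data. No depth exists for arrays: their number limits the precision.

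The 45 genes, the lists and the tests were chosen with earlier results of these data known, so the counts are descriptions. Values on every array are given for the genes whose groups do not overlap and for the 12 with the highest mean signal. Of the other lists, the 3 highest and 3 lowest differences among genes above background on all arrays are named. Foxf1, Osr1, Nkx3-2, Twist1, Cnn1, Lmod1, Tll1 and Colgalt2 were named after their values were seen. Alternatives were median centring, no normalisation, an offset of 16, raising dim values to background, leaving out dim probe sets, the trended fit, other probe set choices, each array left out, and the replicate number as a block.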

Additional observations from a re-analysis of the deposited data

How the results depend on the processing

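Under each of the 14 alternatives run 0 of the matrix genes were called. Their median log2 difference, 0.13 as reported, had its lowest value of -0.061 without heterozygote replicate 2 and its highest of 0.21 without null replicate 2. It was -0.023 without normalisation, which moved the median of all genes from -0.012 to -0.14. The count with every null above both heterozygotes, 8 as reported, was 5 without normalisation (6.44% of all genes) and 4 with the mean of a gene's probe sets (9.98%), and 10 to 20 with an array left out: 20 without heterozygote replicate 1 (25.8% of all genes) and 13 without null replicate 1 (16.3%). The count with every null below, 3 as reported, was 3 to 9 with an array left out: 9 and 8 without heterozygote replicates 1 and 2 (27.8% and 25.0% of all genes) and 6 without null replicate 3 (16.6%). With an array left out the difference spanned 0 for Col1a2 (-0.14 to 1.03), Col2a1 (-0.049 to 0.48), Col3a1 (-0.038 to 1.16), Fbn2 (-0.090 to 1.18), Mfap2 (-0.44 to 0.47), Vcan (-0.061 to 1.07), Mmp2 (-0.19 to 0.61) and Vim (-0.14 to 0.19). Mfap2 was also -0.11 with median centring and -0.16 without normalisation, and Vim -0.18 and -0.22. Whether the replicate numbers pair the pools is not stated. Deviations of same-numbered pools correlated at -0.019 and 0.016 over 18193 genes, and those with the numbers swapped at -0.016 and 0.019. The deviations of 2 heterozygotes mirror each other, so these values cannot decide it. With the replicate block the median was -0.027, 0 genes were called, and Mfap2 and Vim were at -0.13 and -0.027. The median and both differences equal those without null replicate 3, whose number no heterozygote shares, so the block adds no separate estimate. The cause of these shifts was not tested. Tagln, Lum and Lox left the fit without dim probe sets.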
